A study of Arabidopsis thaliana with 24 samples.

Results

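The miR170 and miR171 families of Arabidopsis share a pairing core and are treated here as 1 group, the mature sequences that miRBase names miR170 or miR171, from either arm of the hairpin. In the small RNA tables, 6 of the 350 listed mature sequences met this rule, carrying 8 mature names because 2 of the sequences are each made by a pair of genes. All 6 were above 0 in all 24 libraries. All 6 also passed the minimum for testing, set at 1 RPM (reads per 1000000 reads) on average over the libraries, in each fit described here. The study looked for miRNAs that respond to the stress hormone abscisic acid (ABA) in wild-type seedlings and in mutants of ABA signalling.

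The libraries came from 2-week-old seedlings grown with sucrose on half-strength MS medium, treated for 4 h with 100 µM ABA or with the equivalent mock solution. There were 4 genotypes, wild-type Col-0 (WT) and 3 lines, abi1td, mkkk17 and mkkk18, with T-DNA insertions in the genes of ABI1, a PP2C phosphatase that holds ABA signalling down, and of MAPKKK17 and MAPKKK18, kinases that act downstream of it. Each of the 8 groups of genotype and treatment had 3 biological replicates of whole seedlings, in which fewer cells that make a miRNA and less of it in each cell cannot be told apart.

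A plant miRNA is cut as a duplex from a hairpin precursor by DICER-LIKE1, 1 strand is kept by ARGONAUTE1, and the kept strand guides cleavage of mRNAs that pair with nearly its whole length. The 3p strand of miR170 and miR171 is known to cut mRNAs of the HAIRY MERISTEM (HAM) genes, a branch of the GRAS transcription factors that keep shoot meristem cells undifferentiated and act on chlorophyll synthesis and shoot branching. The 5p strand is the partner in the duplex and usually the less abundant one. In these libraries the reverse held for miR171b and miR171c, whose 5p strands together had more reads than their common 3p strand.

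The 3p strands are shown first because they carry the pairing to the HAM mRNAs, as DNA letters from the deposited tables, 5′ to 3′, with bases 2 to 8 (the seed) in capitals. The tables prefix each name with ath, for Arabidopsis thaliana, as in ath-miR171b-5p and ath-miR171c-3p.
miR171a-3p: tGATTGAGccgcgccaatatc
miR170-3p: tGATTGAGccgtgtcaatatc
miR171b-3p/miR171c-3p: tTGAGCCGtgccaatatcacg
The first pair shared the seed GATTGAG and differed by C12T and C14T (positions from the 5′ end of miR171a-3p, its base first, then that of miR170-3p). The sequence shared by MIR171b and MIR171c began 3 bases further along, so that its seed read TGAGCCG, and over the 18 bases in common it differed from miR171a-3p by C12T.

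The 5p strands are shown because they alone separate MIR171b from MIR171c.
miR170-5p/miR171a-5p: tATTGGCCtggttcactcaga
miR171b-5p: aGATATTAgtgcggttcaatc
miR171c-5p: aGATATTGgtgcggttcaatc
miR171b-5p and miR171c-5p differed by A8G alone, counted on miR171b-5p. The 5p strand named for both miR170 and miR171a is 1 sequence from a pair of precursors, whose reads cannot be told apart, whereas their 3p strands can. For MIR171b and MIR171c the situation is the reverse, with a common 3p strand and separate 5p strands.

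Matched without mismatch to the TAIR10.1 genome (the authors' build is not given in the sources used here), the sequences lay in the annotated precursors MIR171a (AT3G51375, chr3:19073434-19073556, plus strand), MIR170 (AT5G66045, chr5:26411580-26411672, minus strand), MIR171b (AT1G11735, chr1:3961348-3961464, minus strand) and MIR171c (AT1G62035, chr1:22930089-22930204, minus strand). miR171a-3p was fully complementary to a 21-base site within the coding sequence of HAM1 (AT2G45160, chr2:18619128-18619148), HAM2 (AT3G60630, chr3:22411544-22411564) and HAM3 (AT4G00150, chr4:58411-58431), all on the minus strand. The site has the same letters in all 3 genes, and the capitals mark the bases that face the mismatches of miR170-3p.
HAM1, HAM2 and HAM3 site: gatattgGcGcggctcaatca
Against the sequence that would pair in full with this site, miR170-3p differed at 2 positions, T12C and T14C, both of which leave a G:U pair. miR171b-3p/miR171c-3p faced a site shifted by 3 bases and differed at 3 positions, G21T, A19C and T9C in HAM1 and HAM2 and G21C, A19C and T9C in HAM3, of which T9C leaves a G:U pair. The best site in the coding sequence of HAM4 (AT4G36710), the remaining gene of the clade, held from 5 to 6 mismatches, depending on the miRNA. mRNA levels of the HAM genes were not analysed here.

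The library values were RPM rounded to 1 decimal, and their sum over the 350 sequences ran from 16514.9 RPM in mkkk17 mock replicate 1 to 78276.8 RPM in mkkk18 ABA replicate 1 (median 45443.4 RPM). The steps between low values gave the read total to which the RPM refer in 10 libraries, all of them ABA libraries, with from 5542800 to 8574600 reads, while for the other 14 the total was at least 9133000 reads. A level of 3 reads was therefore at most 0.307 to 0.541 RPM, depending on the library. Before testing, each fit rescaled its libraries by the median of ratios, which changed the ABA libraries relative to mock by different amounts in each genotype. The difference in log2 scaling factor, ABA minus mock, was -0.51 for WT and 1.40 for mkkk17, with -0.13 for abi1td and -0.21 for mkkk18. Directions in mkkk17 that turn with this scaling are named below.

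miR171a-3p was the most abundant of the 6 sequences in 24 of 24 libraries and made up between 66.5% and 85.2% of the summed RPM of the group. All 6 are 21 nt long, so that their RPM need no correction for length, and other effects of sequence on these levels were not corrected. In WT mock, miR171a-3p was at 56.3 ± 14.9 RPM (SD, n = 3), followed by miR170-5p/miR171a-5p at 7.93 ± 1.93 RPM, miR170-3p at 4.93 ± 1.62 RPM, miR171c-5p at 4.77 ± 0.49 RPM, miR171b-5p at 4.53 ± 1.85 RPM and miR171b-3p/miR171c-3p at 3.27 ± 0.85 RPM. Below miR171a-3p the replicates of neighbours in this order overlapped. The sequence that pairs in full with the HAM sites was thus also the one with most reads, with miR170-3p at between 0.0337 and 0.144 times its level, depending on the library. Among all 350 sequences miR171a-3p ranked between 25 and 36 by library, and miR171b-5p between 79 and 143.

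**Figure D1:**
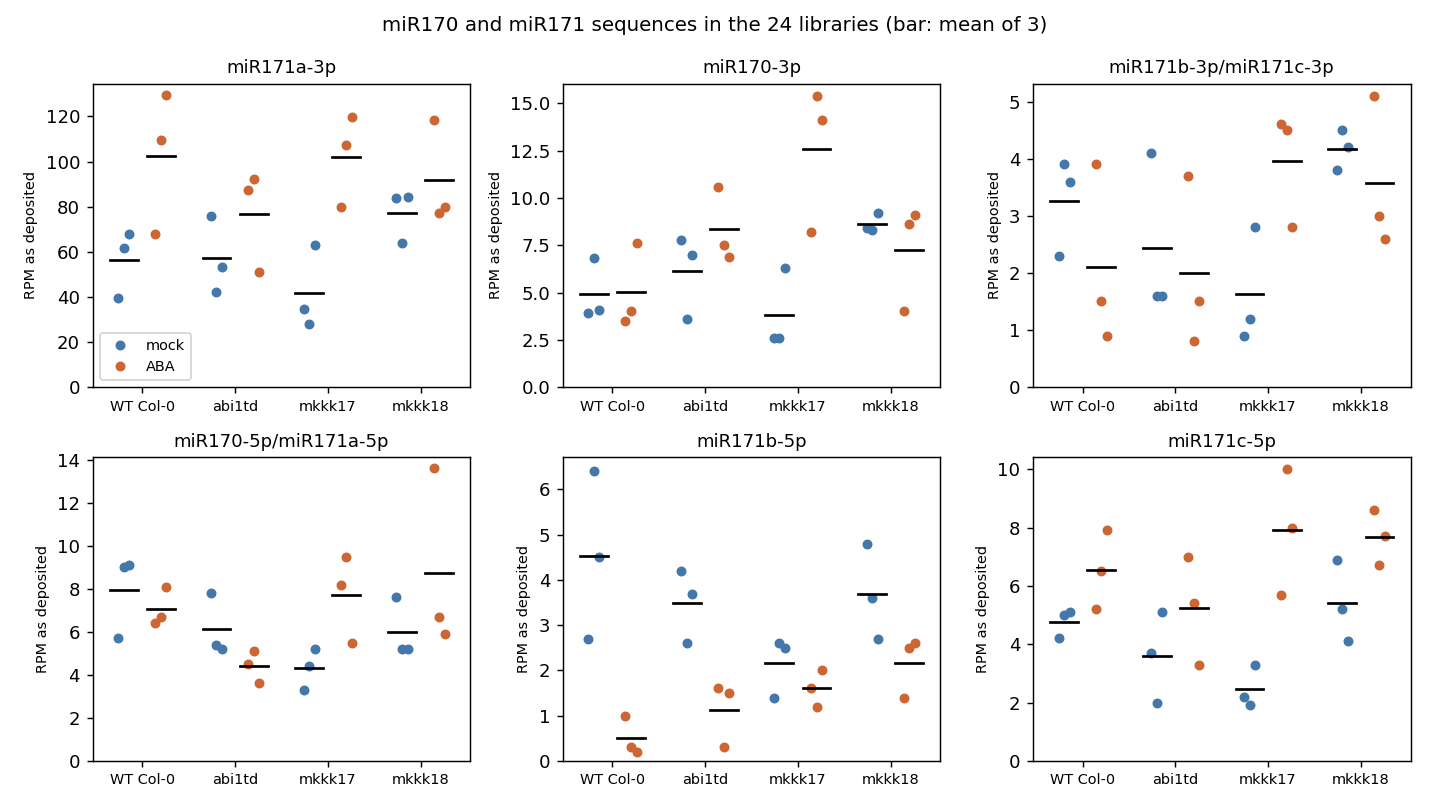
RPM as deposited (vertical axes, from 0) of the 6 sequences in each library of the 4 genotypes, mock in blue and ABA in orange, with points for the 3 replicates and a bar for their mean. miR171a-3p reached 129.5 RPM in WT after ABA, and miR171b-5p in WT fell from between 2.7 and 6.4 RPM to between 0.2 and 1.0 RPM.

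The summed RPM of the 6 sequences was 0.135% to 0.159% of all listed RPM in the WT mock libraries and 0.238% to 0.288% in the WT ABA libraries, without overlap. In the mutants the ranges of mock and ABA overlapped, with 0.156% to 0.213% in abi1td mock and 0.168% to 0.344% in abi1td ABA, 0.149% to 0.272% in mkkk17 mock and 0.155% to 0.311% in mkkk17 ABA, and 0.157% to 0.266% in mkkk18 mock and 0.193% to 0.235% in mkkk18 ABA. The share of the summed group in all miRNA reads thus separated the treatments in WT. Most of that sum was miR171a-3p, from 66.5% to 85.2% over the WT libraries, so the share does not describe each of the 6 sequences. Shares of other groups of miRNAs were not computed.

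In WT, 3 of the 6 sequences changed after ABA, with miR171a-3p and miR171c-5p higher and miR171b-5p lower, and the remaining 3 did not pass the test. Across all miRNAs tested in WT, 75 of 125 were called (60%) at an adjusted p-value under 0.05 from limma with Benjamini-Hochberg adjustment, so that a count of 3 in 6 lies near the background. The mock and ABA libraries did not overlap on scaled values for 4 of the 6, against 66.4% of the 125. The median log2 fold change of the 6 was 0.40, against -0.10 over all 125.

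miR171a-3p, the 3p strand of MIR171a that pairs in full with the HAM1, HAM2 and HAM3 sites, stood at 39.5, 61.6 and 67.8 RPM in the WT mock libraries. In the WT ABA libraries it stood at 67.8, 109.7 and 129.5 RPM. As deposited, the groups met at 67.8 RPM, and after scaling they did not overlap (45.5 ± 5.92 against 117 ± 14.8 scaled RPM, SD, n = 3). The fold change was 2.56 (log2 1.35, SE 0.24, adjusted p = 0.00031, limma with Benjamini-Hochberg adjustment), and with each library left out in turn log2 values ran from 1.24 to 1.49. On RPM as deposited the log2 fold change was 0.84 and was not called (adjusted p = 0.0721 from limma).

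miR171b-5p, the partner strand from MIR171b, stood at 2.7, 6.4 and 4.5 RPM in WT mock and at 1.0, 0.3 and 0.2 RPM in WT ABA. Every ABA library was below every mock library. The values 0.3 and 0.2 RPM are 2 reads and 1 read, with exact Poisson 95% intervals of 0.0369 to 1.10 RPM and 0.0046 to 1.01 RPM for counting error alone. On the scaled values the log2 fold change was -1.94 (SE 0.41, adjusted p = 0.00104, limma with Benjamini-Hochberg adjustment). Its size moved with the pseudocount, from -2.62 with 0.1 to -1.52 with 1, and it remained called in both fits.

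miR171c-5p, the partner strand from MIR171c, moved the other way, with 4.2, 5.0 and 5.1 RPM in WT mock and 5.2, 6.5 and 7.9 RPM in WT ABA. The groups did not overlap. Its log2 fold change was 0.87 (SE 0.28, adjusted p = 0.0137, limma with Benjamini-Hochberg adjustment), and the call was lost without WT mock replicate 2 (0.82, adjusted p = 0.0642) and on RPM as deposited (0.40, adjusted p = 0.403). The strands of MIR171b and MIR171c that differ by a single base were therefore called in opposite directions in the same libraries.

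The other 3 sequences in WT did not pass the test. miR170-3p, the 3p strand of MIR170, ranged from 3.9 to 6.8 RPM in mock and from 3.5 to 7.6 RPM in ABA libraries (log2 0.46, SE 0.31, adjusted p = 0.223 from limma). miR170-5p/miR171a-5p ranged from 5.7 to 9.1 and from 6.4 to 8.1 RPM and separated after scaling alone (log2 0.35, SE 0.28, adjusted p = 0.29 from limma). miR171b-3p/miR171c-3p ranged from 2.3 to 3.9 and from 0.9 to 3.9 RPM (log2 -0.23, SE 0.45, adjusted p = 0.662 from limma). For miR171b-3p/miR171c-3p a single library set the direction, because without WT ABA replicate 3 the log2 value was 0.24.

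**Figure D2:**
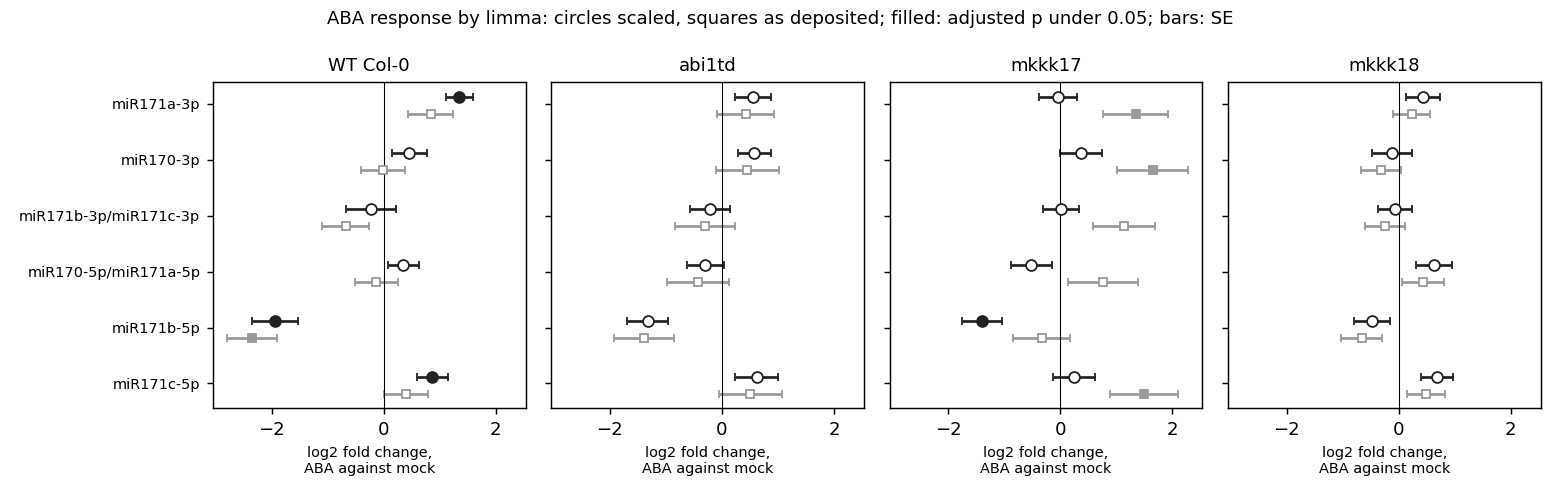
Log2 fold change of ABA against mock (horizontal axis, bars for SE) of the 6 sequences in each genotype, on scaled values (circles) and on RPM as deposited (squares), filled where limma gave an adjusted p-value under 0.05. In WT 3 circles are filled, in mkkk17 only that of miR171b-5p at -1.39, and in mkkk17 the squares lie to the right of the circles.

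The direction in WT moved with base composition. Over the 125 miRNAs tested, the log2 fold change and the GC content of the mature sequence had a Pearson r of 0.64 across miRNAs, which are not independent replicates, and the corresponding values were 0.48 (abi1td), -0.06 (mkkk17) and 0.49 (mkkk18). miR171a-3p holds 52.4% GC, miR171c-5p 42.9% and miR171b-5p 38.1%. With a straight line on GC removed from each library, the log2 fold change in WT was 1.05 for miR171a-3p (adjusted p = 0.00143), 1.43 for miR171c-5p (adjusted p = 0.000756) and -0.96 for miR171b-5p (adjusted p = 0.0487, all from limma), and miR170-3p was called as well (1.01, adjusted p = 0.0164). miR171c-5p and miR170-3p have the same GC content, 42.9%, as have miR171a-3p and miR171b-3p/miR171c-3p, 52.4%.

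**Figure D3:**
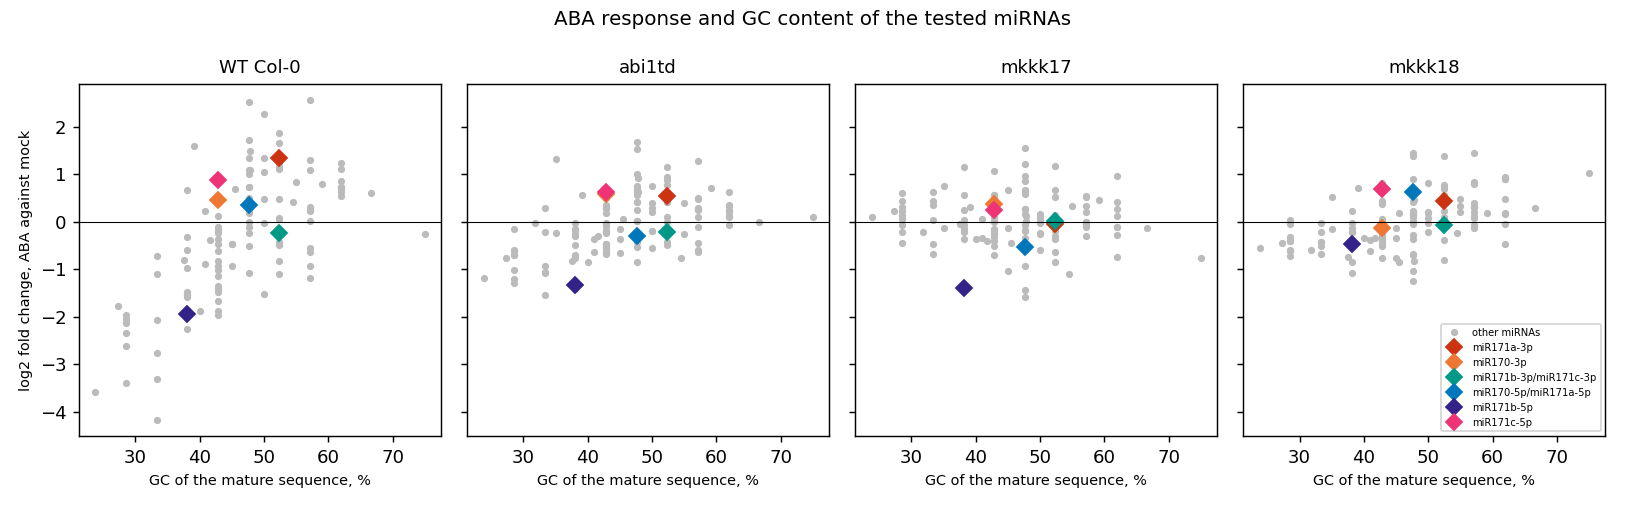
Log2 fold change of ABA against mock (vertical axis) and GC content of the mature sequence in percent (horizontal axis) for every miRNA tested in each genotype, grey for other miRNAs and coloured diamonds for the 6 sequences. In WT the points rise with GC (r = 0.64), with miR171b-5p at 38.1% GC and -1.94 and miR171a-3p at 52.4% GC and 1.35, and in mkkk17 they do not (r = -0.06).

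In abi1td, none of the 6 sequences was called by limma (1 of 6 at an unadjusted p-value under 0.05), where 2 of 129 miRNAs were called in all (1.55%). On scaled values the groups did not overlap for 3 of the 6, against 31.8% of the 129. The sequence that came nearest was again miR171b-5p, at 4.2, 2.6 and 3.7 RPM in mock and 1.6, 0.3 and 1.5 RPM in ABA libraries, without overlap. Its log2 fold change was -1.33 (SE 0.37, adjusted p = 0.157, limma with Benjamini-Hochberg adjustment). Without abi1td ABA replicate 2, in which it had 2 reads, the value was -1.05 and was called (adjusted p = 0.0132). miR171a-3p stood at 75.7, 42.2 and 53.2 RPM in mock and 87.6, 92.2 and 51.1 RPM in ABA libraries, which overlap as deposited and separate after scaling (log2 0.55, SE 0.33, adjusted p = 0.354 from limma). miR171c-5p gave 0.62, miR170-3p 0.58, miR170-5p/miR171a-5p -0.30 and miR171b-3p/miR171c-3p -0.21 on the log2 scale, with adjusted p-values from limma between 0.325 and 0.710.

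In mkkk17, miR171b-5p was the sequence called of the 6, where 4 of 129 miRNAs were called in all (3.1%), and it was also the single one of the 6 whose groups did not overlap on scaled values (17.1% of the 129). It stood at 1.4, 2.6 and 2.5 RPM in mock and at 1.6, 1.2 and 2.0 RPM in ABA libraries, which overlap as deposited and separate after scaling (3.50 ± 1.25 against 1.00 ± 0.40 scaled RPM, SD, n = 3). The log2 fold change was -1.39 (SE 0.35, adjusted p = 0.0403, limma with Benjamini-Hochberg adjustment). The direction held without each library (-1.64 to -1.17), while the call was lost in 5 of those 6 fits, namely without each library other than mkkk17 mock replicate 3 (adjusted p from 0.0787 to 0.356). On RPM as deposited the log2 fold change was -0.33 and was not called (adjusted p = 0.549 from limma).

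For 4 of the other 5 sequences in mkkk17 the scaling also decided the direction or the call. miR171a-3p stood at 34.5, 28.1 and 62.8 RPM in mock and 79.8, 107.3 and 119.6 RPM in ABA libraries, every ABA library higher. Scaled to the other miRNAs of the same libraries it was at 65.1 ± 21.7 and 63.1 ± 19.6 RPM (SD, n = 3), with a log2 fold change of -0.04 (SE 0.34, adjusted p = 0.982), against 1.35 (adjusted p = 0.0472, both from limma) on RPM as deposited. miR171c-5p moved from 0.25 scaled to 1.497 as deposited and miR170-3p from 0.37 to 1.65, both called as deposited only (adjusted p = 0.0374 and 0.0307 from limma). miR170-5p/miR171a-5p gave -0.52 scaled and 0.77 as deposited, and miR171b-3p/miR171c-3p 0.02 and 1.14, with neither called on either scale. Over all 129 miRNAs the median log2 fold change in mkkk17 was 0.02 scaled and 1.28 as deposited.

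In mkkk18, none of the 6 was called by limma (1 of 6 at an unadjusted p-value under 0.05), where 4 of 133 miRNAs were called in all (3.01%), and the groups did not overlap on scaled values for 2 of the 6 (21.1% of the 133). miR171c-5p stood at 6.9, 5.2 and 4.1 RPM in mock and 8.6, 6.7 and 7.7 RPM in ABA libraries (log2 0.68, SE 0.28, adjusted p = 0.206, limma with Benjamini-Hochberg adjustment). miR171b-5p stood at 4.8, 3.6 and 2.7 RPM in mock and 1.4, 2.5 and 2.6 RPM in ABA libraries, every ABA library lower as deposited, with overlap after scaling (log2 -0.48, SE 0.32, adjusted p = 0.521 from limma). miR171a-3p ranged from 63.8 to 84.5 RPM in mock and from 77.4 to 118.6 RPM in ABA libraries (log2 0.44, SE 0.31, adjusted p = 0.521 from limma). The remaining 3 gave 0.63 for miR170-5p/miR171a-5p, -0.12 for miR170-3p and -0.07 for miR171b-3p/miR171c-3p, with adjusted p-values from limma between 0.289 and 0.956.

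Ratios between sequences of the same library do not depend on the scaling, and they are given as descriptions with no test. The ratio of miR171b-5p to miR171c-5p was lower in every ABA library than in every mock library of its genotype, in all 4 genotypes. In WT it was 0.643, 1.28 and 0.882 in mock and 0.192, 0.0462 and 0.0253 in ABA libraries. In abi1td it was 1.14, 1.30 and 0.725 in mock and 0.229, 0.0556 and 0.455 in ABA libraries. Both mutant kinase lines showed the same order. In mkkk17 the ratio was 0.636, 1.37 and 0.758 in mock and 0.281, 0.12 and 0.25 in ABA libraries, and in mkkk18 it was 0.696, 0.692 and 0.659 in mock and 0.163, 0.373 and 0.338 in ABA libraries. Reads of miR171b-5p and miR171c-5p thus stood at between 0.636 and 1.37 to 1 in mock seedlings. After ABA they stood at 0.455 to 1 or less. The ratio leaves out the other strand of MIR171b and MIR171c, whose reads cannot be divided between them. The whole output of each gene was therefore not measured.

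The geometric mean of this ratio changed by -3.89 in WT, -2.51 in abi1td, -2.10 in mkkk17 and -1.32 in mkkk18 on the log2 scale, and the differences between genotypes were not tested. With each library left out the values lay between -4.72 and -3.25 in WT, -3.18 and -1.67 in abi1td, -2.33 and -1.72 in mkkk17, and -1.54 and -0.94 in mkkk18, the value of -1.67 being that without abi1td ABA replicate 2. With 0.5 added to both RPM values, a choice made after seeing the data, the changes were -2.75 in WT, -1.90 in abi1td, -1.83 in mkkk17 and -1.15 in mkkk18. In the 3 libraries with 1 or 2 reads of miR171b-5p the exact binomial 95% interval of the ratio reached 0.178, 0.133 and 0.198 (WT ABA replicates 2 and 3 and abi1td ABA replicate 2), all below the lowest mock ratio of their genotype. Of the 15 pairs among the 6 sequences, 2 (13.3%) kept mock and ABA apart in the same direction in all 4 genotypes, against 2.86% of the 8001 pairs among the 127 miRNAs above 0 in every library. Both of the 2 pairs hold miR171b-5p, the other being with miR170-5p/miR171a-5p.

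**Figure D4:**
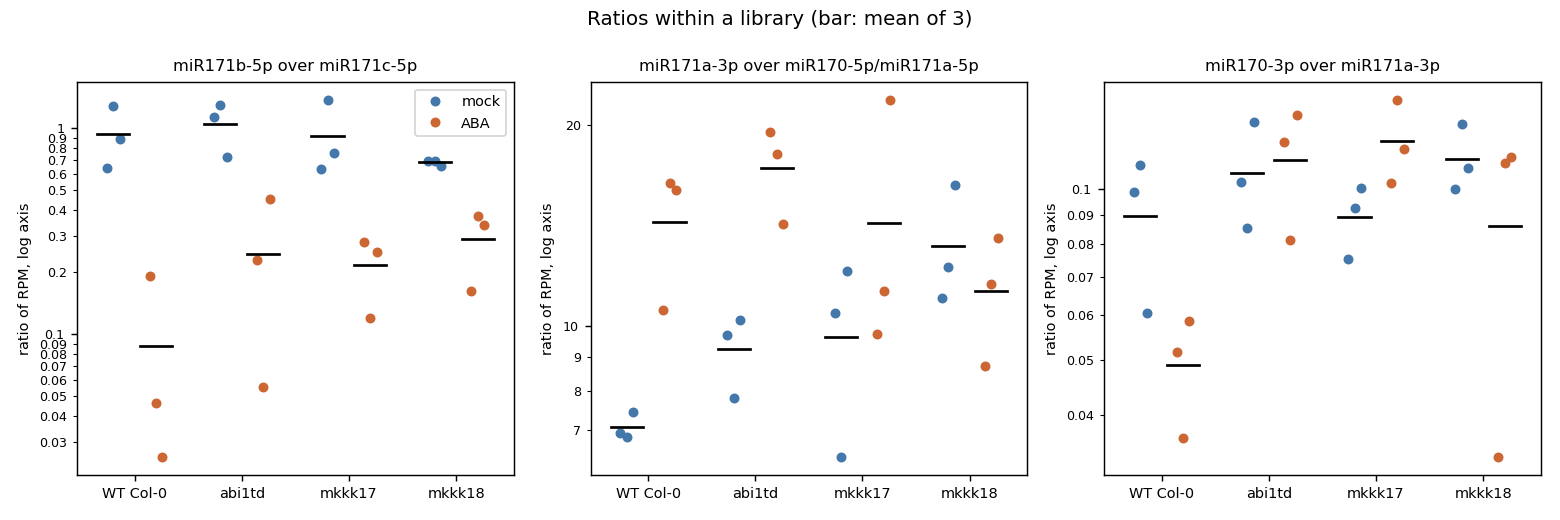
Ratios of RPM within a library (vertical axes, logarithmic) in the 4 genotypes, mock in blue and ABA in orange, with points for the 3 replicates and a bar for their mean. The left panel shows miR171b-5p over miR171c-5p, lower in the ABA libraries of all 4 genotypes (WT from 0.0253 to 0.192 after ABA against 0.643 to 1.28 in mock), and the middle and right panels show ratios whose groups separate in some genotypes.

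The ratio of miR171a-3p to miR170-5p/miR171a-5p sets the guide strand of MIR171a beside the duplex partner that it shares with MIR170. It was 6.93, 6.84 and 7.45 in WT mock and 10.6, 16.4 and 15.99 in WT ABA libraries, and 9.71, 7.81 and 10.2 in abi1td mock and 19.5, 18.1 and 14.2 in abi1td ABA libraries. In both genotypes the ABA libraries lay above the mock libraries. In mkkk17 the groups overlapped (6.39 to 12.1 in mock, 9.73 to 21.7 in ABA libraries), as they did in mkkk18 (11.03 to 16.3 and 8.72 to 13.6). Among all pairs of miRNAs the groups did not overlap for 58.2% in WT, 28.8% in abi1td, 18.9% in mkkk17 and 23.7% in mkkk18.

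The 3p strands of MIR170 and MIR171a, which share their seed and differ at the bases that face the G:U pairs, were compared in the same way. The ratio of miR170-3p to miR171a-3p was 0.0987, 0.110 and 0.0605 in WT mock and 0.0516, 0.0365 and 0.0587 in WT ABA libraries, lower in each ABA library. In mkkk17 it was 0.0754, 0.0925 and 0.1003 in mock and 0.103, 0.144 and 0.118 in ABA libraries, higher in each ABA library. The groups overlapped in abi1td and in mkkk18, where ABA replicate 1, at 0.0337, lay apart from the other ABA libraries at 0.111 and 0.114. The ratio of miR171b-3p/miR171c-3p to the sum of its duplex partners overlapped between mock and ABA in all 4 genotypes, between 0.111 and 0.630 over the 24 libraries.

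The difference in ABA response between each mutant and WT was tested in a fit of all 24 libraries. miR171a-3p responded less in mkkk17 than in WT by 1.48 on the log2 scale (value -1.48, SE 0.41, adjusted p = 0.0114, limma with Benjamini-Hochberg adjustment), the only call among the 6, where 44 of 129 miRNAs were called (34.1%). The difference stayed between -1.71 and -1.25 with each of the 12 libraries left out, with adjusted p-values from 0.00468 to 0.0485, and was -1.07 after the GC correction (adjusted p = 0.0313). On RPM as deposited it turned to 0.50 (adjusted p = 0.422), as miR171a-3p was higher in the ABA libraries of both genotypes on that scale.

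For mkkk18 against WT none of the 6 differences was called by limma (2 of 6 at an unadjusted p-value under 0.05), where 17 of 129 miRNAs were called (13.2%). miR171a-3p gave -0.998 (SE 0.41, adjusted p = 0.0879) and miR171b-5p gave 1.43 (SE 0.54, adjusted p = 0.0696, both from limma). miR171b-5p was called without WT ABA replicate 1 (1.92, adjusted p = 0.0218) and without mkkk18 ABA replicate 1 (1.68, adjusted p = 0.0391). For abi1td none of the 6 was called by limma (1 of 6 at an unadjusted p-value under 0.05), where 2 of 129 miRNAs were called (1.55%). miR171a-3p gave -0.88 (SE 0.41, adjusted p = 0.197 from limma), and -1.24 (adjusted p = 0.0233) without abi1td ABA replicate 2. The smaller ABA response of miR171a-3p was thus called against WT in mkkk17 and not in the other lines, and the mutants were not compared with each other.

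In mock libraries, none of the 6 sequences was called between a mutant and WT by limma, and none had an unadjusted p-value under 0.05. Of 129 miRNAs, limma called 1 in abi1td (0.775%), 1 in mkkk17 (0.775%) and 0 in mkkk18 (0%, with 24 at an unadjusted p-value under 0.05). The estimates for the 6 lay between -0.49, for miR170-5p/miR171a-5p in mkkk18, and 0.65, for miR170-3p in mkkk18, on the log2 scale. For both of these the scaled mock libraries of mkkk18 and WT did not overlap, and for miR170-3p they did not overlap as deposited either. How often mock libraries separate over all miRNAs was not counted.

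In ABA libraries, 2 of the 6 were lower in mkkk17 than in WT, where 53 of 129 miRNAs were called (41.1%). These were miR171a-3p (-0.96, SE 0.29, adjusted p = 0.0125) and miR170-5p/miR171a-5p (-0.83, SE 0.31, adjusted p = 0.0349, both from limma with Benjamini-Hochberg adjustment), that is, the 3p strand of MIR171a and the 5p strand that it shares with MIR170. On RPM as deposited the values were 0.03 and 0.10, neither called (adjusted p = 0.985 and 0.89 from limma). On that scale other sequences were called, both higher in mkkk17, namely miR170-3p (1.26, adjusted p = 0.0195) and miR171b-5p (1.14, adjusted p = 0.0305, both from limma). The call of miR171a-3p was lost without mkkk17 ABA replicate 1 (adjusted p = 0.0576) and after the GC correction (adjusted p = 0.0904), and that of miR170-5p/miR171a-5p without any 1 of the 6 libraries (adjusted p from 0.0521 to 0.0982).

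In mkkk18 ABA libraries, miR171b-5p was 2.14 times higher than in WT ABA libraries (log2 1.10, SE 0.38, adjusted p = 0.0376, limma with Benjamini-Hochberg adjustment), where 30 of 129 miRNAs were called (23.3%). The groups overlapped on scaled values, while as deposited every mkkk18 ABA library was higher. In WT ABA replicates 2 and 3 this sequence had 2 reads and 1 read. The call was lost without WT ABA replicate 2 or 3 or mkkk18 ABA replicate 2 or 3 (adjusted p from 0.12 to 0.222) and after the GC correction (0.44, adjusted p = 0.353). In abi1td ABA libraries none of the 6 was called by limma (1 of 6 at an unadjusted p-value under 0.05), where 21 of 129 were (16.3%). The comparisons with WT use the same 3 WT libraries for all mutants.

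miR171 belongs with other conserved families whose known targets are transcription factor genes, and 54 further sequences of 12 such families (miR156, miR157, miR159, miR160, miR164, miR165, miR166, miR167, miR169, miR172, miR319 and miR396) were counted beside it. In WT, 23 of the 41 tested were called, 14 higher and 9 lower, beside 75 of 125 over all miRNAs, 33 higher and 42 lower. In abi1td 0 of 39 were called by limma (3 at an unadjusted p-value under 0.05), in mkkk17 1 of 39, and in mkkk18 2 of 42, beside 2 of 129, 4 of 129 and 4 of 133 over all miRNAs. In the difference between mkkk17 and WT, 11 of 40 were called, 2 with a more positive and 9 with a more negative response in mkkk17, the latter being the direction of miR171a-3p, beside 44 of 129 over all miRNAs, 26 more positive and 18 more negative.

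The miRNAs whose pattern was most like each sequence were ranked by the Pearson r of log2 scaled RPM over the 24 libraries, as a description. Whether depth or base composition adds to these r values was not tested. For miR171a-3p they were miR472-3p (r = 0.96), miR156b-3p (0.94) and miR157a-3p/miR157b-3p (0.90). For miR171c-5p they were miR156f-3p (0.86), miR157a-3p/miR157b-3p (0.79) and miR398a-3p (0.78), and within the group its highest r was with miR171a-3p (0.79). For miR171b-5p they were miR158a-3p (0.80), miR172a/miR172b-3p (0.76) and miR779.2 (0.76), and its r with miR171a-3p was -0.69 and with miR171c-5p -0.61. The 5p strands of MIR171b and MIR171c thus had r values of opposite sign with miR171a-3p, in the same libraries that gave their calls.

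miR170-5p/miR171a-5p was most like the miR166 sequence named for all its genes (0.79), miR168b-5p/miR168a-5p (0.77) and miR165b/miR165a-3p (0.77). miR170-3p was most like miR173-5p (0.65), miR160c-3p (0.63) and miR408-5p (0.60), and miR171b-3p/miR171c-3p had no r above 0.49 outside the group (miR869.2, miR5651 and miR396a-5p). Its r with miR171b-5p was 0.35 and with miR171c-5p -0.17.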

How the data were processed

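Per the labels and the study's methods, small RNA was sequenced on an Illumina HiSeq instrument, adapters were clipped, short reads and reads without an adapter were dropped, and known miRNAs were counted with mirPRo. The authors deposited RPM for each of the 24 libraries, rounded to 1 decimal, without rescaling between libraries. The study gives processed reads as group means, and which read total lies behind the RPM of each library is not stated. The genome build is not given in the sources used here. Because RPM are not counts, no count model was run.

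Each fit scaled its libraries by median-of-ratios factors from the miRNAs that none of them lists at 0. Scaled RPM, plus a pseudocount of 0.5, were put on a log2 scale and tested in limma 3.58.1 (R 4.3.3, trended moderation, Benjamini-Hochberg adjustment) where the mean reached 1 RPM. ABA was compared with mock over the 6 libraries of a genotype, and genotypes over all 24. The fit was tested on simulated data. Fold changes on this scale understate those of low miRNAs. The alternatives tried are named with their effect under the dependence on processing, among them a GC correction. Intervals and read floors cover counting error only. The members, lists and tests were chosen with earlier results of these data known. All 6 sequences were named, together with the 3 most similar other miRNAs of each. Intervals were computed with SciPy 1.17.1, tables with pandas 2.3.3 and NumPy 2.4.6, and plots with matplotlib 3.10.9 under Python 3.11.15.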

Additional observations from a re-analysis of the deposited data

Results flagged for a closer look

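miR171a-3p was marked because its response to ABA differed between genotypes in a test of the difference itself, with -1.48 on the log2 scale for mkkk17 against WT (limma, adjusted p = 0.0114). The scaled level was higher in 3 of 3 WT ABA libraries than in any WT mock library, and in mkkk17 the groups overlapped. On RPM as deposited the difference turned to 0.50 and was not called (limma, adjusted p = 0.422).

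The ratio of miR170-3p to miR171a-3p was marked because it moved in opposite directions, every WT ABA library lying below the WT mock libraries (mean 0.0489 in ABA) and every mkkk17 ABA library above the mkkk17 mock libraries (mean 0.121 in ABA). The difference between the genotypes in this ratio was not tested.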

How the results depend on the processing

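The counts of called sequences, the values of the 6 sequences and the ratio of miR171b-5p to miR171c-5p gave 786 comparisons with an alternative. Of these, 683 were marked as unchanged. For the value of a sequence this meant the same direction and the same side of the threshold. For a count it meant an equal or similar number called, even where other sequences made it up. For the ratio it meant a shift smaller than the SD between replicates. The scaling mattered most. On RPM as deposited, the number of the 6 called was 1 in WT, 3 in mkkk17 and 3 in the difference between mkkk17 and WT. The calls in mkkk17 were miR170-3p, miR171a-3p and miR171c-5p, while miR171b-5p, at -0.33, was no longer called. Those in the difference, all more positive in mkkk17, were miR170-3p, miR171b-3p/miR171c-3p and miR171b-5p (the last at 2.02, adjusted p = 0.0051 from limma). On that scale the direction turned for miR170-3p (-0.0064) and miR170-5p/miR171a-5p (-0.13) in WT, for miR170-5p/miR171a-5p (0.77) and miR171a-3p (1.35) in mkkk17, for the difference of miR171a-3p between mkkk17 and WT (0.50), and for miR171a-3p (0.029) and miR170-5p/miR171a-5p (0.10) in the ABA libraries of mkkk17 against WT, all on the log2 scale. Scaling by a trimmed mean changed none of these directions or calls.

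The single call in mkkk17, that of miR171b-5p, fell to 0 with a pseudocount of 0.1, with no filter and with the replicate block. The single call in the ABA libraries of mkkk18 against WT, also of miR171b-5p, fell to 0 with a pseudocount of 1, with no filter and with the replicate block. That call was also lost with the GC correction, with or without the block. A mean of at least 5 RPM leaves 4 of the 6 tested and drops miR171b-5p, so neither call could be made under that setting. The GC correction and the fit of all 24 libraries each gave 1 call in abi1td, and leaving out the filter gave 1 in the ABA libraries of mkkk17 against WT. The GC correction, with or without the block, turned the difference of miR171b-5p between mkkk17 and WT from 0.48 (adjusted p = 0.502 from limma) to -0.42. The fit of all 24 libraries turned miR171b-3p/miR171c-3p in mkkk17 (-0.016). With the GC correction and the block together miR171b-5p in WT was -0.96 and not called (adjusted p = 0.0716, limma). With 0.5 added to both values, a choice made after seeing the data, the log2 change of the ratio of miR171b-5p to miR171c-5p in WT was -2.75, without overlap of the groups. The causes of these changes were not tested. Replicate numbers did not pair the libraries (mean correlation of deviations from -0.18 in WT to 0.16 in mkkk18, with at most 2 of the 6 libraries of a genotype correlating best with their own number), so the block is an alternative only.

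With each replicate left out in turn, the number called ran from 0 to 1 in abi1td, in mkkk17, and in the differences of abi1td and mkkk18 from WT, from 1 to 2 in the difference of mkkk17, and from 0 to 2 in the ABA libraries of abi1td, mkkk17 and mkkk18 against WT. Log2 fold changes that turned ran from -0.84 to 0.24 for miR171b-3p/miR171c-3p in WT, from -0.23 to 0.24 for miR171a-3p and from -0.066 to 0.15 for miR171b-3p/miR171c-3p in mkkk17, and from -0.38 to 0.24 for miR170-3p and from -0.32 to 0.054 for miR171b-3p/miR171c-3p in mkkk18. miR171b-5p, at 1 or 2 reads in 3 ABA libraries, is the value most limited by depth.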
